A study of Mus musculus with 4 samples.

Results

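The nuclear-encoded subunits of the respiratory chain and ATP synthase, with the assembly factors of complex I, were followed across the cell classes of 4 mouse kidney libraries. Members were taken by name: symbols that start with Nduf, Uqcr, Atp5, Cox4, Cox5, Cox6, Cox7 or Cox8, together with Sdha, Sdhb, Sdhc, Sdhd and Cyc1. The rule used no measured value and found 93 of the 20672 genes in the files. By complex they were 36 subunits and 8 assembly factors of complex I, 4 members of complex II, 9 of complex III, 20 of complex IV with Ndufa4 and Ndufa4l2 counted there, and 16 of complex V. All 93 were protein coding in the GENCODE vM21 annotation of GRCm38 and lay on 19 chromosomes.

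The respiratory chain passes electrons from NADH and succinate to oxygen through complexes I to IV and pumps protons out of the mitochondrial matrix, and complex V, the ATP synthase, uses that gradient to make ATP. Most subunits have a single gene, but several subunits of complex IV, and subunit c of complex V, have paralogues used in different tissues or states. Cox4i2 and Ndufa4l2 are paralogues of Cox4i1 and Ndufa4 known for induction at low oxygen, Cox7a1 and Cox6a2 are the isoforms of heart and skeletal muscle, and Cox6b2 is best known from testis. In the kidney the tubule segments that transport salt and solutes rely heavily on oxidative phosphorylation.

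The study profiled single cells of the developing kidney, in droplets with a 3′ chemistry, to follow maturation. The transplant library came from C57BL/6N kidneys removed at E12.5 that spent 12 days as grafts in the epididymal fat of a host. The other 3 libraries were kidneys of ICR embryos at E15.5, C57BL/6 embryos at E17.5 and ICR pups at P0. All were labelled wild type. The sample labels give the host as C57BL/6N and the series text gives immunodeficient NOD mice, so the host strain is unsettled. Cells of graft and host origin cannot be told apart in the transplant, and 63 lymphoid cells were gated there against 0 in each of the other libraries. The number of animals behind each library is not given in the sources used here. With 1 library a group there was no replicate check and no test between groups. Strain, age, growth site and library cannot be told apart in the transplant or E17.5 comparisons, and age and library cannot be told apart between P0 and E15.5. All intervals are 95% intervals and cover counting error only.

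After filtering, 6268 transplant, 3463 E15.5, 4396 E17.5 and 7568 P0 cells were used, with median depths of 6269.5, 22589, 7199 and 9885.5 UMIs (unique molecular counts) per cell. Between 2.12% and 2.95% of the barcodes of a library also occurred in another library. Cells were put into classes by fixed marker genes, none of them a member, and UMIs were summed per class and library and given as CPM, the UMIs of a gene per 1000000 UMIs of that class. In 46 class and library pairs the class markers were checked against all other cells. The 6 markers of a class were each at least 2-fold higher than in other cells, except for 5 of 6 in transplant collecting duct and stroma and 3 of 6 in the transplant early nephron gate. The 91 transplant cells of that gate carried loop of Henle markers at 629.2 CPM, against 17.7, 51.1 and 36.1 CPM in the same gate at E15.5, E17.5 and P0, so their label is doubtful. Distal tubule markers also exceeded the own markers of some gates: they summed to 8696 CPM in the transplant collecting duct gate and 8990 CPM in the transplant intercalated gate, against 4143 and 4265 CPM of own markers. At E15.5 the collecting duct gate had 1540 CPM of distal and 1408 CPM of own markers. Cells of these gates are therefore of uncertain identity, and the gate names are kept as working names. The transplant held no cell of the nephron progenitor gate, against 518, 365 and 229 at E15.5, E17.5 and P0.

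Across all cells used, the most abundant members were Cox4i1, the core regulatory subunit of complex IV, at 1510 CPM, and Cox8a at 1315 CPM. Complex V was led by Atp5b, the catalytic beta subunit, at 1158 CPM and Atp5l at 815.3 CPM, and complex III by Uqcrh at 823.9 CPM and Uqcrb at 584.4 CPM. Ndufa2 at 490.6 CPM and Ndufa13 at 431.2 CPM were the highest subunits of complex I. These levels are CPM of 3′ UMIs, with no length scaling. In complex II, Sdhb, the iron-sulfur subunit, had 253.0 CPM, the membrane anchor Sdhd 170.3 CPM, the flavoprotein Sdha 144.6 CPM and the anchor Sdhc 122.0 CPM. Cyc1, cytochrome c1 of complex III, had 258.6 CPM. The lowest members of each complex were Ndufs1 at 56.7 CPM, Ndufaf5 at 16.5 CPM, Uqcrc2 at 219.1 CPM and Atp5s at 10.1 CPM. Assembly factors were sparse. Even their highest, Ndufaf8 at 77.7 CPM and Ndufaf2 at 61.5 CPM, stood below every member outside the assembly factors but Ndufs1, Atp5s and 8 tissue isoforms.

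Tubule segments carried the most respiratory chain RNA. The summed members took 5.14% of all UMIs in transplant loop of Henle cells and 4.44%, 6.12% and 6.15% at E15.5, E17.5 and P0. Proximal tubule cells had 5.42% in the transplant and 4.18%, 5.80% and 4.66% at the same 3 stages. Intercalated cells, the acid-base cells of the collecting duct, reached 6.89% in the transplant and 6.43% at P0. Stroma had 2.80% in the transplant and 2.80%, 2.56% and 2.29% at E15.5, E17.5 and P0. The lowest of these tubule values, 4.18%, lay above the highest of stroma, 2.80%. Distal tubule gates held few cells, 139 in the transplant and 21, 22 and 37 at the 3 stages, and gave 8.98% in the transplant and 4.66%, 7.05% and 4.55% at those stages. Nephron progenitors stood beside stroma, with 2.81%, 2.65% and 2.34% at E15.5, E17.5 and P0. Erythroid cells, found in number at E15.5, had the lowest share at 0.585%.

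**Figure D1:**
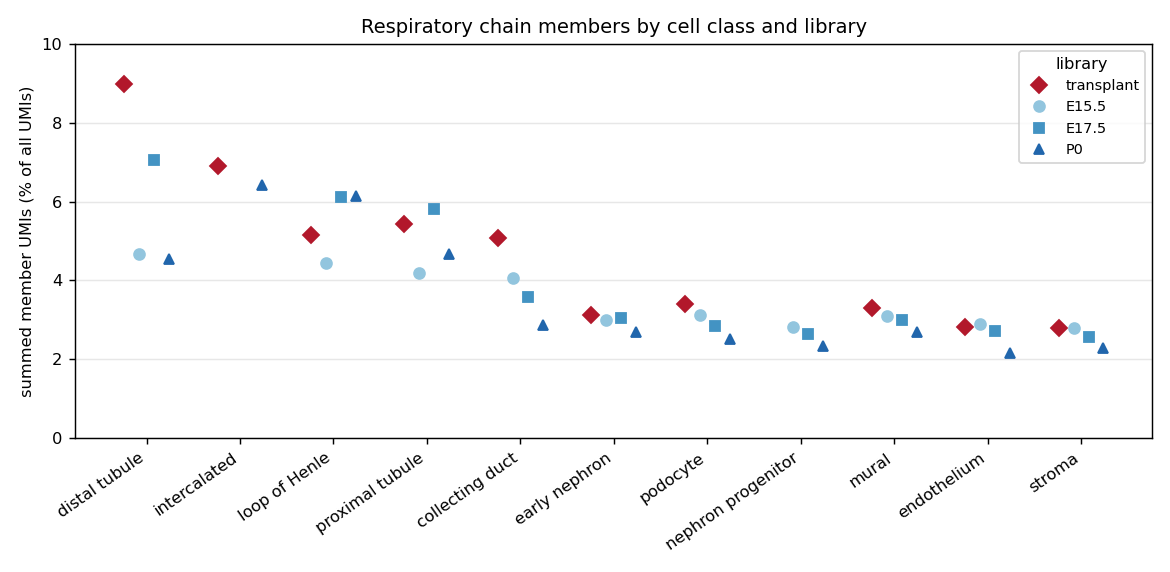
Summed UMIs of the 93 members as a percentage of all UMIs (vertical axis) in each cell class (horizontal axis), with 1 symbol per library and no error bar because each group is 1 library. Intercalated, loop of Henle and proximal tubule cells lie above stroma in every library that holds them, while nephron progenitors, endothelium and stroma lie between 2.16% and 2.88%.

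The complexes kept similar proportions in the loop of Henle across libraries. In the loop of Henle, complex IV made up 29.2% of member UMIs in the transplant and 28.9%, 30.3% and 30.7% at E15.5, E17.5 and P0, and complex V 28.5% in the transplant and 31.8%, 29.2% and 28.8%. Complex II, the smallest complex, contributed 2.18% in the transplant and 1.72%, 1.94% and 1.83%. Mural cells had a larger complex IV share, 30.3% in the transplant and 32.2%, 34.2% and 34.9% at the 3 stages, against 27.6%, 28.8%, 29.8% and 30.4% in stroma of the same 4 libraries. That share includes the isoforms Ndufa4l2 and Cox4i2, with 1055 and 231.2 CPM in transplant mural cells and 1431 and 595.5 CPM at P0. All members summed to 32890 CPM in transplant mural cells and 26980 CPM at P0. The complex IV share without these isoforms was not computed, so a rise of complex IV as a whole is not shown.

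Within a library, each class was set against stroma, so that both sides came from the same library. Depth per cell still differed between classes: median UMIs were 11794 in transplant proximal tubule and 6129 in transplant stroma, and 9516 and 5282 in those classes at E17.5. A member was called when it differed at least 1.5-fold with at least 50 UMIs over both sides. Summed members were 1.94-fold over stroma in transplant proximal tubule and 1.49-, 2.27- and 2.03-fold at E15.5, E17.5 and P0, and 1.83-fold in transplant loop of Henle and 1.59-, 2.40- and 2.68-fold at those stages. In the proximal tubule 40 of 89 members were at least 1.5-fold over stroma in all 4 libraries, beside 17.7% of all genes tested, and 3 were at least 1.5-fold under it, beside 16.7%. In the loop of Henle these were 46 of 88 members beside 13.4%, and 2 members beside 13.4%. The intercalated gate, measured in the transplant and at P0, had 71 of 88 members over stroma in both libraries, beside 17.0%, and 2 under it, beside 22.5%. All complexes took part: the loop of Henle calls were 13 subunits and 2 assembly factors of complex I, 3 members of complex II, 8 of complex III, 9 of complex IV and 11 of complex V. With cells left out that had 2 markers of another class, the proximal tubule count over stroma was again 40 of 89, beside 18.0%. The loop of Henle count was again 46, of 87, beside 13.3%. The collecting duct count was 4 of 87, beside 11.3%, so below the share of all genes. The intercalated gate was too small to compare.

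Atp5b, the catalytic subunit of ATP synthase, was 2.86- to 3.29-fold over stroma across the 4 libraries in the loop of Henle and 2.55- to 3.16-fold in the proximal tubule. Uqcrfs1, the Rieske iron-sulfur protein of complex III, was 2.40- to 3.60-fold over stroma in the loop of Henle. Cox5a, a structural subunit of complex IV, was 3.80-fold over stroma in transplant proximal tubule and 2.03-, 4.57- and 4.22-fold at E15.5, E17.5 and P0. The E15.5 value was the lowest of the 4 for Cox5a, as it was for the summed members. Sdha was 2.05-fold over stroma in transplant proximal tubule and 1.52-, 1.96- and 1.90-fold at the 3 stages. In intercalated cells Sdhd was 3.97-fold over stroma in the transplant and 5.01-fold at P0.

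Distal tubule cells, tested in the transplant alone, had 79 of 88 members over stroma, beside 27.4%, and 2 under it, beside 32.4%, with a sum of 3.21-fold. The collecting duct varied by library. It had 56 of 89 members over stroma in the transplant, beside 32.1%, and 34 of 89, 26 of 88 and 12 of 88 at E15.5, E17.5 and P0, beside 23.6%, 22.1% and 21.6%. Its sums were 1.81-fold in the transplant and 1.45-, 1.40- and 1.25-fold at the 3 stages, so P0 was the lowest. In all 4 libraries it had 9 of 88 over stroma, beside 13.0%, and 3 under it, beside 11.0%; the 9 were Atp5g1, Cox5a, Cox5b, Cox8a, Cyc1, Uqcr11, Uqcrc2, Uqcrfs1 and Uqcrq. In the remaining classes few members were over stroma in every library. Nephron progenitors had 0 of 88 over it in 3 libraries, beside 6.2%, and 3 under it, beside 16.7%. Early nephron cells had 2 of 88 over stroma, beside 7.27%, and 3 under it, beside 10.1%; the pair over it was Ndufaf6, an assembly factor, at 1.81- to 2.50-fold and Sdhd at 1.59- to 1.72-fold. Podocytes had 0 of 86 over stroma, beside 11.5%, and 3 under it, beside 13.5%, and endothelium 0 of 88 over it, beside 11.7%, and 5 under it, beside 11.8%. Mural cells had 2 of 85 over stroma in 3 libraries, beside 6.23%, and 1 under it, beside 7.29%. In nephron progenitors, early nephron cells, podocytes, endothelium and mural cells the counts over stroma were below the share of all genes, and the members under stroma there were mostly Cox4i2, Cox6b2 and Ndufa4l2.

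**Figure D2:**
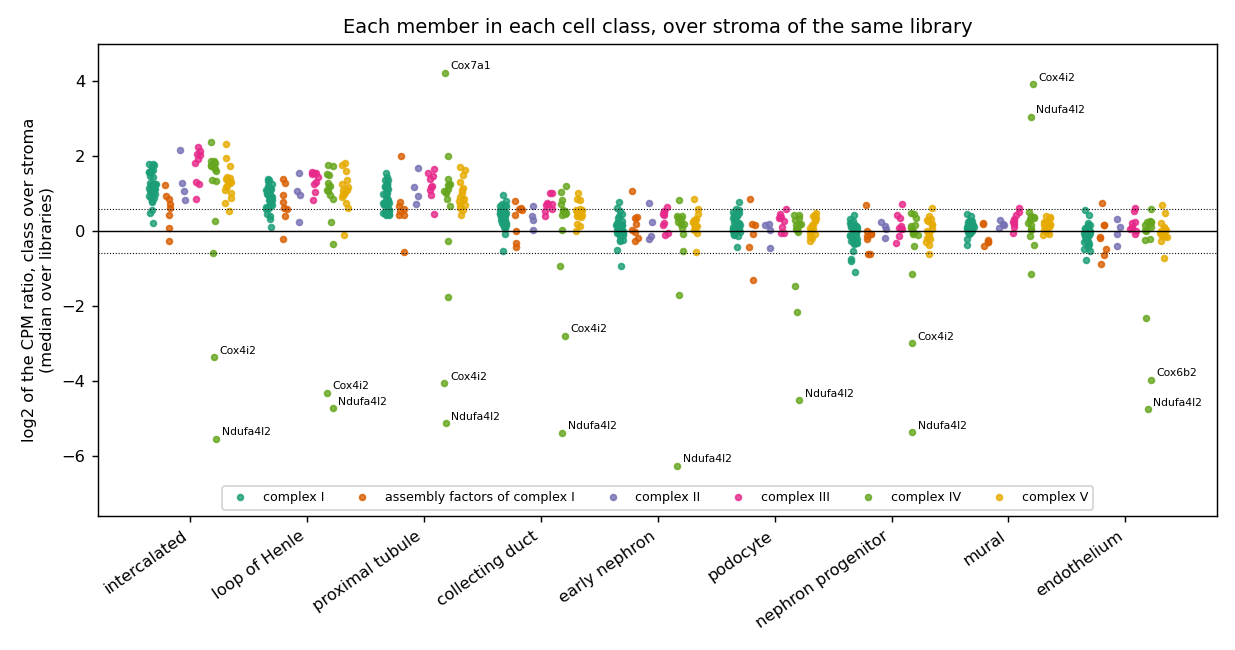
Each point is 1 member in 1 class, plotted as the median over libraries of the log2 CPM ratio of that class to stroma of the same library (vertical axis), coloured by complex, with dotted lines at 1.5-fold. Intercalated, loop of Henle and proximal tubule members lie mostly above the upper line, Cox4i2 and Ndufa4l2 stand far above the rest in mural cells and far below them in most other classes, and Cox7a1 is the highest point of the proximal tubule.

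Cox4i2 was concentrated in mural cells, the pericytes and smooth muscle cells around vessels. It had 231.2 CPM in transplant mural cells and 222, 557 and 595.5 CPM at E15.5, E17.5 and P0. Stroma had 15.2 CPM in the transplant and 13.5, 33.2 and 44.7 CPM at the 3 stages, so mural cells were 15.2-fold over stroma in the transplant, 16.8-fold at E17.5 and 13.3-fold at P0. Levels in the 2 groups of cells did not overlap. Proximal tubule cells had 0.634 CPM in the transplant and 2.12, 1.15 and 3.51 CPM at the 3 stages, and E15.5 loop of Henle cells had 0 UMIs, which allows up to 1.80 CPM. As a share of Cox4i1 and Cox4i2 together, Cox4i2 made up 15.9% (14.7 to 17.2%) in transplant mural cells and 15.9% (13.5 to 18.6%), 30.1% (27.6 to 32.8%) and 32.3% (30.5 to 34.1%) at E15.5, E17.5 and P0. Cox4i1 itself was nearly level, with 1222 CPM in transplant mural cells and 1175, 1292 and 1250 CPM at the 3 stages. The transplant and E15.5 shares overlapped, and both lay below those of E17.5 and P0.

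Ndufa4l2 was more abundant still in mural cells and extended further into stroma. It had 1055 CPM in transplant mural cells and 870, 1432 and 1431 CPM at E15.5, E17.5 and P0, while its paralogue Ndufa4, a complex IV subunit, had 574, 571, 486 and 300 CPM in the same 4 libraries. Its share of the pair was 64.8% (63.2 to 66.3%) in the transplant and 60.4% (57.0 to 63.6%), 74.6% (72.1 to 77.0%) and 82.7% (81.1 to 84.2%) at the 3 stages, so it outnumbered Ndufa4 in mural cells of every library under this gate. At E15.5 the order turned, to 47.8%, when a marker counted as on at 1 UMI. In stroma its share was 15.3% in the transplant and 5.57%, 20.8% and 33.3% at E15.5, E17.5 and P0. Stroma also carried mural markers at 2314 CPM in the transplant and 510.3, 2099 and 2124 CPM at the 3 stages, and their part in the stromal values was not tested. Early nephron cells showed the reverse order of the pair of isoforms: Cox4i2 had 13.4, 24.8 and 28.5 CPM there at E15.5, E17.5 and P0, against 1.88, 1.85 and 2.98 CPM for Ndufa4l2. Mural markers in the early nephron gate summed to 38.5, 39.4 and 121.8 CPM at those stages.

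**Figure D3:**
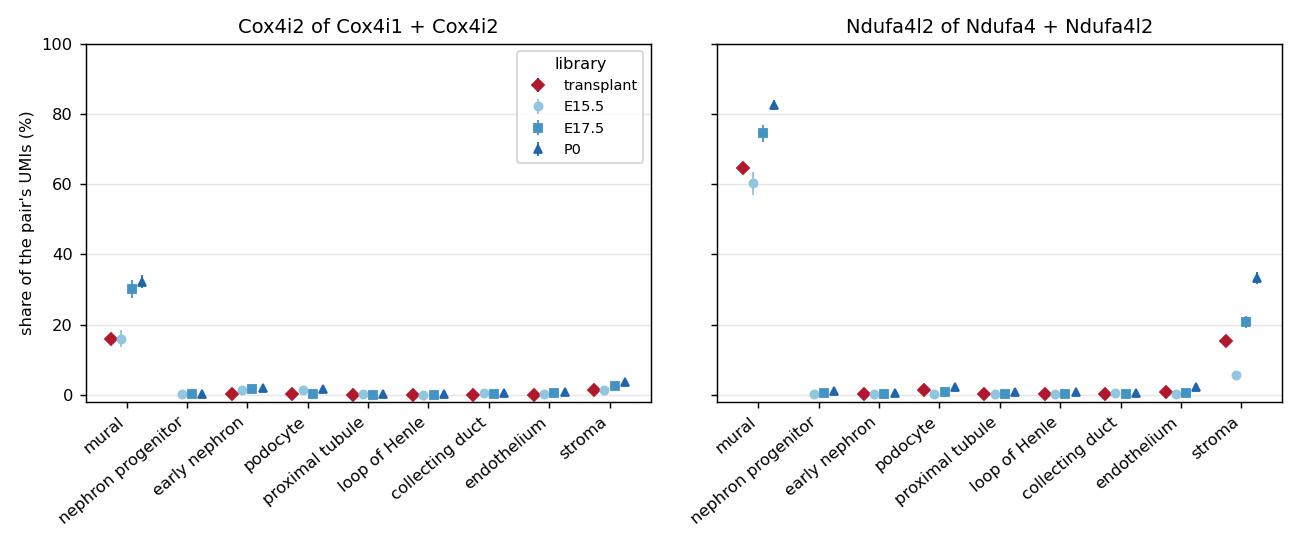
Share of the UMIs of each pair that came from Cox4i2 (left) and Ndufa4l2 (right), in percent on the vertical axis, by cell class and library, with exact binomial 95% intervals that cover counting error only. Mural cells hold 15.9% to 32.3% Cox4i2 and 60.4% to 82.7% Ndufa4l2, stroma is the only other class shown above 5% for Ndufa4l2, and the remaining classes lie near 0.

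Single cells gave the same contrast between classes. At least 1 Cox4i2 UMI was found in 52.9% of transplant mural cells and in 85.3%, 74.3% and 81.1% at E15.5, E17.5 and P0. With each cell thinned to 3000 UMIs the shares were 42.3% in the transplant and 37.5%, 66.3% and 67.2% at the 3 stages, against 0.212%, 0.559%, 0% and 0.641% of proximal tubule cells in the same 4 libraries. Thinned Ndufa4l2 shares in mural cells ranged from 83.9% in the transplant to 90.6% at E15.5. Thinning left out 69 of 367 transplant mural cells and 2 of 34, 8 of 109 and 14 of 206 at the 3 stages. Both isoforms were seen together in 188 of the 367 transplant mural cells and in 29 of 34, 79 of 109 and 166 of 206 such cells at the 3 stages, and Cox4i2 without Ndufa4l2 in 6, 0, 2 and 1 cells of the same libraries. Unthinned, Ndufa4l2 was found in 87.2% of transplant mural cells and in 97.1%, 95.4% and 92.7% at the 3 stages. Few cells could therefore hold Cox4i2 alone, and depth was not matched between cells, so these counts are a description.

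Of a list of 12 hypoxia genes, 9 had higher levels in mural cells of both E17.5 and P0 than of the transplant and E15.5. The share of all genes with that order was not computed, so the count is a description. Their sum was 160.6 CPM in the transplant and 182.6, 375.6 and 486.4 CPM at E15.5, E17.5 and P0, with Egln3, an oxygen-sensing hydroxylase, at 9.0 CPM in the transplant and 4.98, 41.6 and 41.2 CPM at the 3 stages. Mural markers were highest in the transplant, with 9101 CPM in transplant mural cells and 4562, 5742 and 5207 CPM at the 3 stages. Unlike the isoforms, the hypoxia genes were not high in mural cells relative to stroma. In the transplant 0 of 7 were over it, beside 17.2% of all genes, and 3 under it, beside 18.4%. At E17.5 2 of 11 were over it, beside 11.9%, and 5 under it, beside 17.4%. At P0 1 of 11 was over it, beside 13.7%, and 4 under it, beside 17.0%. The part of either list in the isoform levels was not tested.

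Across 39 class and library pairs of at least 50 cells, the genes whose log2 level followed Cox4i2 most closely were Hey2 (r = 0.937), Higd1b (0.926), Hectd2 (0.925), Vgll3 (0.922) and Kcnab1 (0.911). Those nearest to Ndufa4l2 were Myh11 (0.971), Pla2r1 (0.969), Mrvi1 (0.969), Rgs5 (0.967) and Gdf10 (0.965). Higd1b, Myh11 and Rgs5 are among the markers that defined the mural gate, and the pairs share libraries and depth, so these correlations are a description. Cox4i2 lies at chr2:152754173-152765037 on the plus strand and Ndufa4l2 at chr10:127514967-127517154 on the plus strand of GRCm38.

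Cox7a1, the heart and skeletal muscle isoform of a complex IV subunit, was a tubule and intercalated gene in these kidneys (chr7:30184144-30186078, plus strand). Proximal tubule cells had 31.5 CPM in the transplant and 41.2, 31.1 and 20.6 CPM at E15.5, E17.5 and P0, and stroma had 2.64 CPM in the transplant and 1.60, 0.353 and 1.77 CPM. The 2 ranges did not overlap, and Cox7a1 was 11.9-fold over stroma in the transplant and 25.8-, 88.2- and 11.6-fold at the 3 stages. The E17.5 value rests on 1 UMI in stroma and has an interval of 15.7 to 3499. Intercalated cells had higher levels than the proximal tubule wherever both were measured, with 37.9 CPM in the transplant and 62.3 CPM at P0. The intervals of the shares of cells with a UMI overlapped. They were 32.5% (22.45 to 43.89%) against 28.8% in the proximal tubule (26.1 to 31.6%) in the transplant. At P0 they were 34.6% (21.97 to 49.09%) against 25.7% (22.8 to 28.9%). The small difference in the transplant is therefore uncertain. The widely expressed isoform Cox7a2 was far more abundant in the proximal tubule, with 886.9 CPM in the transplant and 765.7, 1161 and 865.8 CPM at the 3 stages. Genes nearest to Cox7a1 in pattern were Atp6v1a (r = 0.918), Rab17 (0.889), Atp6v0a4 (0.889), Pdxk (0.881) and Esrra (0.881), of which Atp6v1a and Atp6v0a4 encode subunits of the vacuolar proton pump and Esrra a nuclear receptor that regulates mitochondrial genes.

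Cox6b2, the isoform best known from testis (chr7:4751792-4753094, minus strand), was present in most kidney classes and nearly missing from endothelium. The small immune gates also had it in few cells. A UMI was found in 0 of 63 transplant lymphoid cells and in 10 of 111 transplant, 10 of 45 E15.5 and 1 of 33 E17.5 macrophages. In endothelium it was found in 17 of 689 transplant, 42 of 220 E15.5 and 40 of 458 E17.5 cells. Endothelial cells had 3.62 CPM in the transplant and 6.34, 8.23 and 7.47 CPM at E15.5, E17.5 and P0. Stroma had 89.8 CPM in the transplant and 105, 102 and 109 CPM, so endothelium was 0.0403-, 0.0602-, 0.0805- and 0.0683-fold of stroma in the 4 libraries. Its paralogue Cox6b1 did not share the difference: endothelium had 710.1 CPM in the transplant and 741.3, 671.7 and 501.4 CPM at the 3 stages, against 597.7, 665.9, 585.4 and 481.3 CPM in stroma. Mural cells lay between, with 40.9 CPM of Cox6b2 in the transplant and 46.5, 44.6 and 52.4 CPM, and loop of Henle cells had 54.0 CPM in the transplant and 83.9, 81.1 and 90.0 CPM. The remaining tissue isoforms were close to silent. Summed over all cells used in the 4 libraries, Cox6a2 had 32 UMIs, Cox7b2 25, Cox8b 24 and Cox8c 2, and these were the 4 members under 50 UMIs. Cox6a2 reached 15.7 CPM in transplant macrophages. Macrophages at E15.5 and E17.5 had 0 UMIs, which allows up to 4.08 and 19.1 CPM, so the E17.5 cells were too few for a contrast.

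Most members followed a common pattern. Over the 39 class and library pairs, 68 of the 93 members had r of at least 0.8 with the summed level of the other members, led by Cox5b at 0.985. The share of all genes that reach this r was not computed, and the pairs share libraries. The count is therefore a description and does not set the members apart from other genes. Among the 89 members with at least 50 UMIs in all, the lowest values belonged to Cox4i2 (-0.36), Ndufa4l2 (-0.30), Cox7a2l (-0.27), Atp5g2 (0.32) and Cox6b2 (0.32). The 4 nearly silent isoforms lay between -0.18 for Cox6a2 and 0.02 for Cox8b. Cox7a2l takes part in joining complexes III and IV into supercomplexes. Nephron progenitors had 545.9, 898.2 and 811.4 CPM of it at E15.5, E17.5 and P0, against 473.6, 427.2 and 462.2 CPM in the proximal tubule. The class with the most Cox7a2l differed by library: the early nephron gate in the transplant (671.8 CPM), podocytes at E15.5 (808.1 CPM), nephron progenitors at E17.5 and intercalated cells at P0 (814.0 CPM).

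Atp5g1, Atp5g2 and Atp5g3 encode the same mature subunit c, the proton-carrying ring of ATP synthase, with different import signals, and their mix differed between cell classes. Their RefSeq promoters (GRCm38.p6, 250 bases before to 50 after the start, all on the minus strand) are shown because the genes give 1 protein and differ in where they are expressed. They are chr11:96075582-96075881 for Atp5g1, chr15:102670998-102671297 for Atp5g2 and chr2:73911277-73911576 for Atp5g3. Capitals mark matches on either strand to the NRF1 core GCGCATGC, the GABP motif CCGGAAGT and the hypoxia core ACGTG.
Atp5g1: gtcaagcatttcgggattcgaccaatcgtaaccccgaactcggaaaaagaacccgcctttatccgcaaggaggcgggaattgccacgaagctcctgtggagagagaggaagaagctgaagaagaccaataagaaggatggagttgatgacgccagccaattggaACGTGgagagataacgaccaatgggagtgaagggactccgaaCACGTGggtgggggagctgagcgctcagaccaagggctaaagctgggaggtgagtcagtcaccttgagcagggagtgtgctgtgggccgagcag
Atp5g2: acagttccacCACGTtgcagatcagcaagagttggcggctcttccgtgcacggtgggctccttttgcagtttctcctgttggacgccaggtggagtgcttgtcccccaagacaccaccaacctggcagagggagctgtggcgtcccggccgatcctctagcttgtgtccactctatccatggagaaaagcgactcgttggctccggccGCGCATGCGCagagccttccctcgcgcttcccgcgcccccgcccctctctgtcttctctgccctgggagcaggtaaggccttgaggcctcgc
Atp5g3: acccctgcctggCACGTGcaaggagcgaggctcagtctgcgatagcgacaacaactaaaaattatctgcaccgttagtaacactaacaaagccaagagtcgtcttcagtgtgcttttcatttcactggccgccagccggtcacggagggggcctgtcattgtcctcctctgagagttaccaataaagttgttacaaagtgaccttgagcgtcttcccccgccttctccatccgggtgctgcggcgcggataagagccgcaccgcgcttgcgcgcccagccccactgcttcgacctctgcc
The NRF1 core was found in Atp5g2, where matches on both strands overlap as 1 stretch, and in neither of the other windows. The hypoxia core was matched 3 times in Atp5g1, 1 time in Atp5g2 and 2 times in Atp5g3, counting each strand of a palindrome, and the GABP motif in none. Of 79 promoters of 74 members in the RefSeq table, 12 (15.2%) held the NRF1 core, against 891 of all 32851 promoters (2.71%). The GABP motif was in 5 member promoters (6.33%), against 1277 of all (3.89%), and the hypoxia core in 18 (22.8%), against 6447 of all (19.6%). A match is a run of letters and not a bound site.

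Atp5g1 led in tubules and Atp5g2 in endothelium and podocytes. In transplant loop of Henle cells Atp5g1 had 1057 CPM and at E15.5, E17.5 and P0 1257, 1912 and 1755 CPM, while endothelium had 352.2 CPM in the transplant and 551.5, 444.6 and 259.4 CPM. Atp5g2 was closer between the classes, with 718.2 CPM in transplant loop of Henle cells and 1039, 908.4 and 787.0 CPM at the 3 stages, against 548.6, 906.3, 816.4 and 626.5 CPM in endothelium of the same 4 libraries. The loop of Henle range of Atp5g1 lay wholly above that of endothelium, and the ranges of Atp5g2 overlapped. As a share of the 3 genes, Atp5g1 made up 41.9% in transplant loop of Henle cells and 41.6%, 50.8% and 49.9% at the 3 stages, and 30.9%, 30.3%, 28.5% and 23.3% in endothelium. Atp5g2 made up 28.5% in transplant loop of Henle cells and 34.4%, 24.1% and 22.4%, and 48.2%, 49.8%, 52.4% and 56.3% in endothelium. Nephron progenitors resembled endothelium, with Atp5g2 at 51.0%, 50.4% and 52.9% at E15.5, E17.5 and P0. Stroma varied between libraries, with Atp5g1 at 43.6% in the transplant and 35.5%, 38.7% and 29.6% at the 3 stages. Over stroma, Atp5g1 was 2.48-fold in transplant loop of Henle cells and 2.44-, 4.38- and 6.07-fold at the 3 stages, and in intercalated cells 3.86-fold in the transplant and 6.26-fold at P0.

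**Figure D4:**
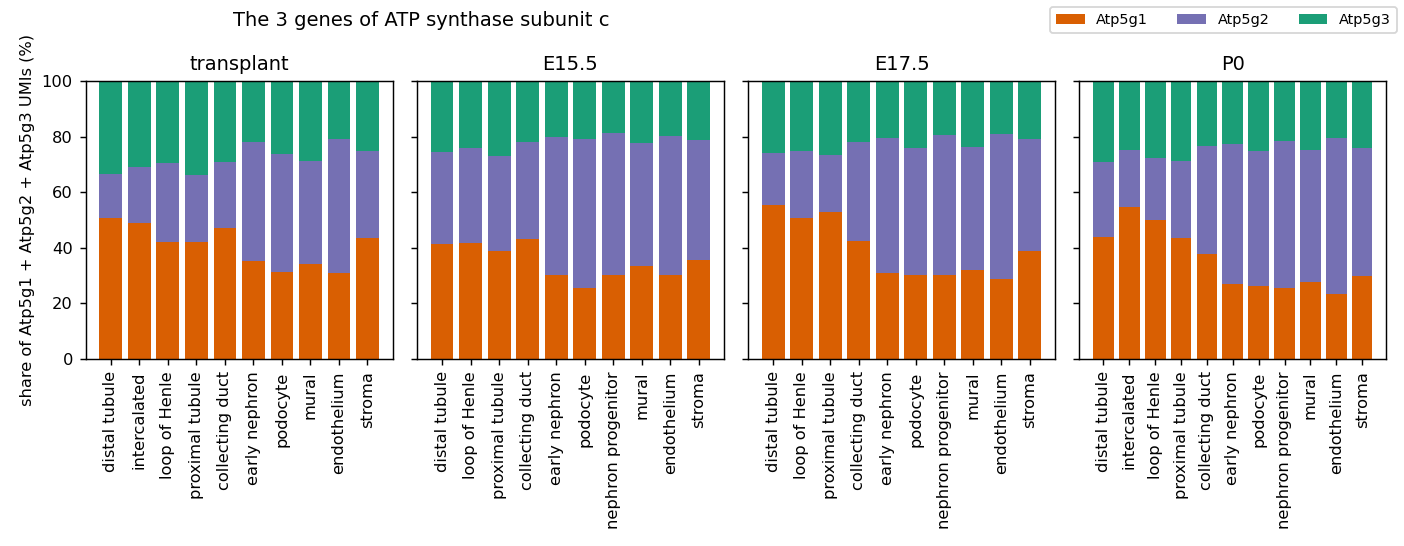
Stacked bars give the percentage of subunit c UMIs from Atp5g1, Atp5g2 and Atp5g3 (vertical axis, 0 to 100%) in each cell class, with 1 panel per library. Atp5g1 takes 38.8% to 52.9% of the UMIs in proximal tubule cells and 23.3% to 30.9% in endothelium, where Atp5g2 is the largest part in all 4 panels.

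Between P0 and E15.5, both ICR, the loop of Henle moved apart from the other classes. Its E15.5 side held 50 cells, the fewest allowed for a ratio. In the loop of Henle 38 of 88 members were at least 1.5-fold higher at P0, beside 16.6% of all genes tested, and 1 was lower, beside 23.3%, and the summed members were 1.39-fold (1.38 to 1.40) of E15.5. The median member was at a log2 ratio of 0.54, against -0.13 for all genes. In the proximal tubule 10 of 89 were higher, beside 14.9%, and 3 lower, beside 17.5%, with a sum of 1.12-fold (1.11 to 1.12). Both counts were below the share of all genes, and the median member was at 0.25, against -0.05 for all genes. The collecting duct went the other way, with 0 of 87 members higher, beside 11.9%, and 37 lower, beside 30.9%, and a sum of 0.703-fold (0.697 to 0.709). Endothelium had 2 of 88 higher, beside 21.1%, and 24 lower, beside 20.7%, and a sum of 0.749-fold (0.745 to 0.754). Nephron progenitors had 0 of 86 higher, beside 11.3%, and 27 lower, beside 25.4%; stroma 2 of 88 higher, beside 13.6%, and 17 lower, beside 20.8%. Podocytes had 1 of 83 higher, beside 17.0%, and 11 lower, beside 12.0%, and early nephron cells 5 of 88 higher, beside 12.9%, and 12 lower, beside 16.8%. Set to a median of 0 over all genes, the loop of Henle had 52 higher, beside 20.7%, and 1 lower, beside 17.3%. On that scale the collecting duct had 2 higher, beside 19.2%, and 18 lower, beside 18.6%, and nephron progenitors 1 higher, beside 17.1%, and 14 lower, beside 16.9%, so both lower counts stood near the share of all genes. Early nephron cells had 7 higher, beside 14.7%, and 10 lower, beside 14.1%.

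Uqcrb, a complex III subunit, had 1261 CPM in P0 loop of Henle cells and 590.3 CPM at E15.5, a ratio of 2.14 (2.0 to 2.29). Ndufa9, which helps hold the arms of complex I together, had 230.0 CPM there at P0 and 97.7 CPM at E15.5, a ratio of 2.35 (2.0 to 2.79), and ranged from 1.08- to 2.35-fold over the 8 classes. The complex V subunits Atp5k and Atp5e ran against this: over the 8 classes Atp5k was 0.299- to 0.813-fold and Atp5e 0.407- to 0.798-fold at P0, each at or under 1 in 1.5 in 7 of them. In the proximal tubule Cox7a1 was 20.6 CPM at P0 and 41.2 CPM at E15.5, a ratio of 0.499 (0.416 to 0.600). In stroma Ndufa4l2 had 200.5 CPM at P0 and 44.7 CPM at E15.5, a ratio of 4.48 (4.09 to 4.91), and Cox4i2 44.7 and 13.5 CPM, a ratio of 3.31; the stromal mural marker sums of 2124 and 510.3 CPM stand beside both.

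At E17.5 the proximal tubule had its highest member share of the 4 libraries. Against E15.5, 39 of 87 members were higher in the proximal tubule, beside 15.7%, and 0 were lower, beside 14.6%, with a sum of 1.39-fold (1.38 to 1.40). In the loop of Henle 39 of 85 were higher, beside 15.2%, and 0 lower, beside 10.1%, with a sum of 1.38-fold (1.37 to 1.39). Cox5a had 1280 CPM in E17.5 proximal tubule and 587.5 CPM at E15.5, a ratio of 2.18 (2.09 to 2.27), and Ndufs3, a core subunit of complex I, a ratio of 2.09. In the loop of Henle the complex I subunits Ndufc2 and Ndufs7 had ratios of 1.94 and 1.92. Atp5k and Atp5e were again at or under 1 in 1.5, in 6 of 8 classes each. The E17.5 embryos differed in strain from those of E15.5.

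Set against P0, the transplant had more member RNA in the collecting duct gate and less in the loop of Henle. In transplant cells of the collecting duct gate 69 of 87 members were at least 1.5-fold higher, beside 42.4% of all genes, and 84 were above a ratio of 1, with a sum of 1.78-fold (1.76 to 1.79). The share of all genes above a ratio of 1 was not computed, and the median gene of this gate was itself at a log2 ratio of 0.44. The loop of Henle had 2 of 88 higher, beside 33.5%, and 10 lower, beside 7.84%, and a sum of 0.836-fold (0.832 to 0.840). All genes were shifted upward in this comparison, with medians from 0.20 to 0.44 on the log2 scale by class. Set to a median of 0, 30 members were higher in the collecting duct, beside 21.9% of all genes, and the loop of Henle had 0 higher, beside 16.4%, and 45 lower, beside 16.6%. Podocytes had 32 of 88 higher, beside 25.4%, and 1 lower, beside 13.3%; endothelium 32 of 88 higher, beside 31.2%, and 3 lower, beside 11.9%. Mural cells had 29 of 86 higher, beside 25.6%, and 1 lower, beside 12.3%, stroma 22 of 88 higher, beside 27.0%, and 2 lower, beside 12.9%, and the proximal tubule 6 of 89 higher, beside 24.2%, and 2 lower, beside 10.9%. Intercalated cells had 5 of 82 higher, beside 27.1%, and 1 lower, beside 11.3%, and the doubtful early nephron gate 23 of 87 higher, beside 38.8%, and 2 lower, beside 19.6%. With the median of all genes set to 0, podocytes had 15 higher and 1 lower, beside 16.4% and 19.4% of all genes, and endothelium 13 and 3, beside 16.2% and 19.9%. Mural cells then had 8 and 4, beside 15.5% and 18.8%, stroma 8 and 4, beside 16.5% and 19.4%, and the proximal tubule 2 and 3, beside 16.02% and 16.03%. The intercalated gate had 1 and 5, beside 18.3% and 18.0%, and the early nephron gate 10 and 5, beside 28.3% and 27.5%. On that scale the excess of members past 1.5-fold in endothelium, mural cells and podocytes over the share of all genes was gone or small. The median members of these classes still lay above that of all genes, at 0.22, 0.22 and 0.27 in that order on the log2 scale. Over all 9 classes the calls were 87 higher and 72 lower, against 220 and 23 unshifted.

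**Figure D5:**
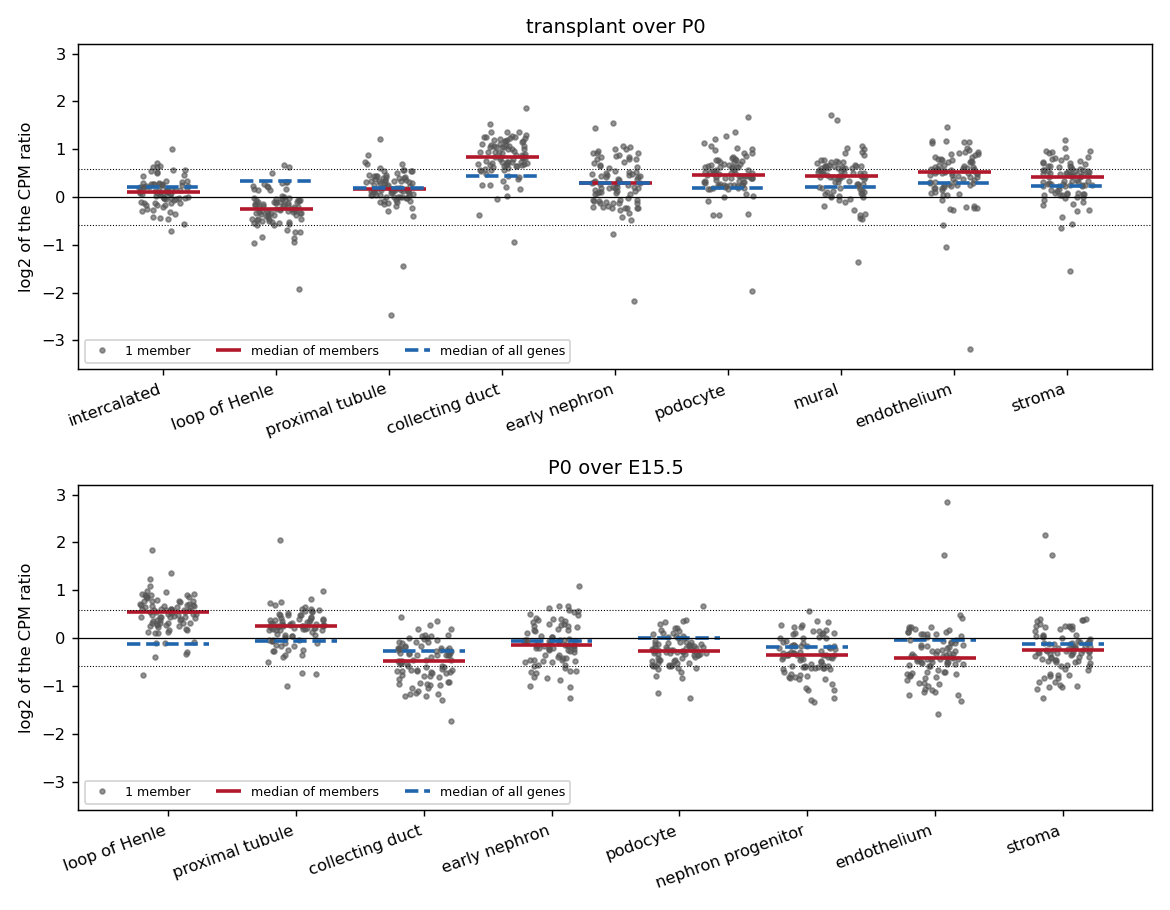
Each grey point is 1 member, plotted as the log2 CPM ratio (vertical axis) of transplant over P0 (upper panel) and P0 over E15.5 (lower panel) in each cell class, with the median of members in red, the median of all genes as a blue dashed line and dotted lines at 1.5-fold. In the upper panel the red line lies at 0.85 in the collecting duct and -0.25 in the loop of Henle, and in the lower panel at -0.47 and 0.54 in those classes.

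Markers of neighbouring cells moved with the collecting duct result. Distal tubule markers summed to 8696 CPM in the transplant gate, against 1540, 2422 and 1985 CPM at E15.5, E17.5 and P0, and intercalated markers to 725.6 CPM, against 207.9, 75.4 and 32.9 CPM. With cells left out that had 2 markers of another class, 80 transplant and 346 P0 cells remained, distal markers were 1194 CPM in the transplant and 796.7 CPM at P0, and own markers 4677 and 4313 CPM. In these cells 41 of 86 members were at least 1.5-fold higher in the transplant, beside 37.5% of all genes, with a sum of 1.47-fold (1.45 to 1.48). In a check added after the data were seen, cells holding any intercalated marker UMI were left out instead; 37 transplant cells remained, fewer than the 50 asked of other ratios, against 325 P0 cells. There 52 of 83 members were higher, beside 31.7%, with a sum of 1.54-fold (1.51 to 1.57), and the distal marker S100g still had 5964 CPM in the transplant and 1535 CPM at P0.

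Ndufa1, an X-linked accessory subunit of complex I, passed 1.5-fold in more classes than any other member, by a narrow margin. It was at least 1.5-fold higher in the transplant in 8 of 9 classes (1.23- to 3.63-fold), with 459.6 CPM in transplant collecting duct and 126.6 CPM at P0, a ratio of 3.63 (3.29 to 4.01). Ndufa3 was at least 1.5-fold higher in 7 of 9 classes, with 370.8 CPM in transplant endothelium and 168.3 CPM at P0, a ratio of 2.20 (2.07 to 2.35). Ndufaf8, Ndufb4 and Ndufa5 were so in 7 of 9 classes and Ndufaf7 in 7 of 8 (1.45- to 3.18-fold). These counts are unshifted, and 24.2% to 42.4% of all genes were higher by class. Cox4i2 was lower in all 6 classes with enough UMIs (0.110- to 0.388-fold), and mural cells had 231.2 CPM in the transplant and 595.5 CPM at P0, a ratio of 0.388 (0.347 to 0.434). Ndufa4l2 was less so in mural cells, at 0.738 (0.695 to 0.783). In podocytes Sdhd had 218.7 CPM in the transplant and 85.7 CPM at P0, a ratio of 2.55, and in the loop of Henle Cox7b had 748.6 and 1450 CPM, a ratio of 0.516 (0.499 to 0.534).

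Set against E17.5, which is closer in strain to the transplant, the collecting duct had 33 of 87 members higher in the transplant, beside 26.8%, and 2 lower, beside 11.8%, with a sum of 1.43-fold (1.41 to 1.44), and podocytes 11 of 85 higher, beside 18.6%, and 0 lower, beside 14.0%. Set to a median of 0, the collecting duct had 13 higher, beside 18.2%, and 2 lower, beside 17.8%, so its excess of members past 1.5-fold was gone. A smaller upward shift remained, with its median member at 0.30 on the log2 scale and its sum at 1.24-fold. Without cells that had 2 markers of another class, and unshifted, 14 of 83 members were higher, beside 23.9%, with a sum of 1.198-fold (1.183 to 1.212). That gate left 80 transplant and 217 E17.5 cells. Without cells that held any intercalated marker UMI, 24 of 81 were higher, beside 20.9%, with a sum of 1.285-fold (1.261 to 1.31). That check left 37 transplant and 186 E17.5 cells. Ndufa1 was again high in the collecting duct, at 3.17-fold, and Atp5b had 1951 CPM in the transplant and 1009 CPM at E17.5, a ratio of 1.93. Summed members were 0.840-fold in the loop of Henle and 0.934-fold in the proximal tubule, where Atp5g1 was 0.553- and 0.594-fold in that order. Mural Cox4i2 was 0.415-fold. The transplant comparisons share the transplant library, and those of P0 share the P0 library.

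Other genes of energy metabolism, from lists outside the members, followed the members in some classes and not in others. Citrate cycle genes were at least 1.5-fold over stroma for 12 of 13 in transplant proximal tubule and 10, 13 and 11 of 13 at E15.5, E17.5 and P0, beside 28.9%, 22.5%, 27.9% and 29.2% of all genes in the same 4 libraries. Between P0 and E15.5 in the loop of Henle, where 16.6% of all genes were higher and 23.3% lower, 6 of 13 mitochondrially encoded genes were higher and 1 lower, with a sum of 1.60-fold. There 4 of 13 citrate cycle genes and 12 of 15 glycolysis genes were higher. Genes of the mitochondrial ribosome did not share the loop of Henle increase, with 4 of 78 higher and 2 lower. They were lower at P0 for 41 of 78 in endothelium, beside 20.7%, 35 in nephron progenitors, beside 25.4%, and 31 in the collecting duct, beside 30.9%. In the transplant against P0, citrate cycle genes were higher for 10 of 13 in the collecting duct gate, beside 42.4%, and 8 of 13 in podocytes, beside 25.4%. Of 12 dissociation stress genes, a list of immediate early and heat-shock genes, 10 to 12 were higher at P0 than at E15.5 in every class. By class 11.3% to 21.1% of all genes were higher, and the sums of the list were 2.54- to 7.65-fold. In the loop of Henle that list summed to 6786 CPM in the transplant and 2173, 6263 and 11320 CPM at the 3 stages, and its part in the member results was not tested.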

How the data were processed

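Droplet 3′ libraries were aligned and counted with Cell Ranger 3.1.0 on GRCm38, per the submitters' processing notes. Matrix headers name version 3.1.0 in the transplant and E17.5 libraries but 3.0.2 in those of E15.5 and P0. Each deposited matrix holds raw UMI counts by gene and barcode, per the file headers. How reads shared by near-identical genes and strand were treated is not given in the sources used here. A joined matrix of 3 libraries was not used here. Total depth was 57855356 UMIs for the transplant library and 92387054, 42430540 and 99068204 UMIs for the E15.5, E17.5 and P0 libraries.

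Barcodes with at least 500 genes and at most 20% mitochondrial UMIs were kept, and doublets scored by Scrublet in scanpy 1.11.5 were removed at 0.8% per 1000 cells (350 in the transplant, 102, 167 and 524 at E15.5, E17.5 and P0). A marker was on at 2 or more UMIs and 2 or more per 10000, and a cell took the class with the most of 6 markers on, at least 2 and more than any other class. Cells with none were 1441, 850, 1014 and 2334 in the transplant, E15.5, E17.5 and P0. Ratios needed 50 cells on each side and levels 20. Shares have exact Clopper-Pearson, levels exact Poisson and ratios exact conditional binomial intervals. The ratio script was tested on simulated data. Alternatives changed the gates, doublet removal, weighting and scaling. Named genes were the isoform members, the 5 members the rule spells out, the 2 highest and the lowest of each complex, the 2 highest and lowest in each comparison, and members whose highest class reached 3 times the median. Members, lists and tests were chosen with earlier results of these data known.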

Additional observations from a re-analysis of the deposited data

Results flagged for a closer look

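The summed members went in opposite directions in different classes of the same comparison; none of these differences was tested, because each group is 1 library. P0 over E15.5 was 1.115 in the proximal tubule and 1.386 in the loop of Henle, against 0.7031 to 0.8972 in the other 6 classes. E17.5 over E15.5 was 1.012 in early nephron cells, 1.39 in the proximal tubule and 1.38 in the loop of Henle, against 0.8767 to 0.9408 in the other 5 classes. The lowest of these, 0.8767 in the collecting duct, was 0.9789 without cells that held any intercalated marker UMI. The transplant over P0 was 0.8357 in the loop of Henle, against 1.072 to 1.777 in the other 8 classes. The transplant over E17.5 was 0.9341 in the proximal tubule and 0.8396 in the loop of Henle, against 1.031 to 1.425 in the other 6 classes. With ratios shifted to a median of 0 over all genes, several of the other classes changed side: the transplant over P0 was then 0.9318 in the intercalated and 0.9471 in the early nephron gate, the transplant over E17.5 0.934 in the early nephron gate and 0.9541 in endothelium, and E17.5 over E15.5 0.9466 in early nephron cells.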

How the results depend on the processing

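No paired analysis was possible because each group is 1 library with 1 replicate. The alternatives moved the gates, the doublet step, the weighting of cells and the scaling, and 127 of 139 values of the 14 main results stayed within 1.5 times the reported count or inside the interval of the reported share. Counts of members past 1.5-fold pooled higher and lower calls here, so a change in their balance was not scored. Shifted to a median of 0, members past 1.5-fold in the transplant over P0 numbered 159 (87 higher, 72 lower), against 243 (220 higher, 23 lower). The transplant over E17.5 had 40 higher and 33 lower when shifted, against 73 and 15. P0 over E15.5 had 80 higher and 96 lower, against 58 and 132, and E17.5 over E15.5 80 and 47, against 97 and 38. With cells excluded that had 2 markers of another class, members called against stroma in all libraries numbered 116 (95 higher, 21 lower), against 195 (170 higher, 25 lower). The intercalated gate, with 71 higher and 2 lower, had too few cells left to enter. No share of all genes was computed for these totals. By class, 6.15% to 18.0% of all genes were higher and 7.18% to 16.1% lower with those cells excluded. At least 3 markers on gave Cox4i2 shares in mural cells of 21.29% in the transplant, 35.22% at E17.5 and 40.30% at P0, and Ndufa4l2 shares of 69.78%, 79.49% and 85.24%. A marker on at 1 UMI gave 28.04% for Cox4i2 at P0 and Ndufa4l2 shares of 47.80% at E15.5 and 77.80% at P0; excluding cells with 2 markers of another class gave 56.17% for Ndufa4l2 at E15.5. Summed log2 ratios that changed direction were those of E17.5 over E15.5 in early nephron cells (-0.006 with a marker on at 1 UMI, -0.079 shifted and -0.010 with equal weight per cell) and, when shifted, of transplant over P0 in early nephron (-0.078) and intercalated cells (-0.102) and transplant over E17.5 in early nephron (-0.099) and endothelium (-0.068). The cause was not tested. With at least 3 markers on, E15.5 mural cells were too few for a value. Depth limits the low isoforms, and intervals cover counting error only; 1 library a group, strain differences, a doubtful early nephron gate and unsettled host strain limit every transplant comparison.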
